A study of Mus musculus with 12 samples.

Results

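Extrinsic cell death is started by death receptors at the cell surface, and the 8 genes followed here encode the proteins that decide in which way such a signal ends. They are the initiator caspase Casp8 and its catalytically inactive relative Cflar, the kinases Ripk1 and Ripk3, the pore-forming Mlkl, and the inhibitor of apoptosis proteins Birc2, Birc3 and Xiap. They were found by their gene symbol in the deposited table, which lists 22243 genes, and were represented there by 15 principal transcripts. RNA sequencing was carried out on M1-activated bone marrow-derived macrophages (BM-Mɸs) of 6 ErbB4myeKO and 6 ErbB4FF mice, with 1 mouse of each genotype from 6 litters. The labels give every such pair a batch letter of its own, so litter and batch cannot be told apart. ErbB4myeKO mice carry floxed ErbB4 and LysMCre, labelled LysMCre/ErbB4-floxxed (KO), and ErbB4FF littermates carry the floxed alleles without Cre, labelled ErbB4-floxxed (WT). All mice had a C57Bl/6 background, and neither age nor sex is on the labels. LysMCre expresses the recombinase from the lysozyme 2 locus, so that deletion is directed to myeloid cells, and the controls lack Cre itself as well as the deletion. All 12 cultures were grown in M-CSF-containing medium and were activated with 100 U/mL IFN-γ over 16 h and then with LPS (100 ng/mL) over another 6 h. Neither resting cells nor a culture without LPS were part of the comparison, so the values describe activated cells only.

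When TNF binds its receptor, a membrane complex forms in which RIPK1 is decorated with ubiquitin chains by the IAP proteins cIAP1 and cIAP2, and NF-κB signaling and survival follow. When that complex is destabilized, RIPK1 can join FADD and caspase-8 and lead to apoptosis. Caspase-8 paired with the long form of cFLIP, the product of Cflar, cleaves RIPK1 and RIPK3 and holds necroptosis back. When caspase-8 is not active, RIPK1 and RIPK3 bind each other and RIPK3 phosphorylates MLKL, which then permeabilizes the plasma membrane. Macrophages stimulated through Toll-like receptor 4 use the same machinery, with the adaptor TRIF in place of the TNF receptor, and are known to undergo necroptosis when caspases are blocked. NF-κB is known to induce Cflar and Birc3, and interferons are known to induce Mlkl and Zbp1.

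Cflar and Casp8 are neighbours on chromosome 1 of GRCm38 (58711508 to 58758884 and 58795374 to 58847503 in GENCODE M21), with 36.5 kb between them. Birc2 and Birc3 lie side by side on chromosome 9 (7818227 to 7837064 and 7848699 to 7873186), 11.6 kb apart. Ripk1 is on chromosome 13 (34002363 to 34037147), Ripk3 on chromosome 14 (55784995 to 55788865), Mlkl on chromosome 8 (111311797 to 111338177) and Xiap on chromosome X (42059679 to 42109656). RefSeq promoter windows, from 250 bases before to 50 bases after an annotated start on GRCm38.p6, were at hand for all 8 genes, 12 windows in total. The windows of Cflar and Birc3 are shown because the levels of these genes followed each other across the libraries (Pearson r of log2 values 0.92). They were not the closest pair, since Cflar and Xiap had 0.98, and the windows of Xiap are not shown. The windows of Ripk1 are shown because each opens 1 of its deposited transcripts, ENSMUST00000021844 for the upstream and ENSMUST00000167374 for the downstream start. Capitals mark matches to the motifs described after the sequences, and each line reads 5′ to 3′ on the strand of the gene.
Cflar, chr1:58711241-58711540, plus strand: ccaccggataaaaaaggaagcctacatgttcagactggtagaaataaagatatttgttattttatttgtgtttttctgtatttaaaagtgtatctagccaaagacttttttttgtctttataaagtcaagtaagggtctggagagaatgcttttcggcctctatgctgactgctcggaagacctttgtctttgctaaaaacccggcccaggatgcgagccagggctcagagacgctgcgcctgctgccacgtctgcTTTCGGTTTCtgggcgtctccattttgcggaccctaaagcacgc
Birc3, chr9:7873121-7873420, minus strand: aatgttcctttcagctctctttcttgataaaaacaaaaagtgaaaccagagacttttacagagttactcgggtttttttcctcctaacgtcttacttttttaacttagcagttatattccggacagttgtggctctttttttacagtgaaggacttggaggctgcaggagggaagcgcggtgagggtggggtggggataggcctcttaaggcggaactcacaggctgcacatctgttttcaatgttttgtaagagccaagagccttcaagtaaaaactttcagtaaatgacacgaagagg
Ripk1, upstream start, chr13:34002113-34002412, plus strand: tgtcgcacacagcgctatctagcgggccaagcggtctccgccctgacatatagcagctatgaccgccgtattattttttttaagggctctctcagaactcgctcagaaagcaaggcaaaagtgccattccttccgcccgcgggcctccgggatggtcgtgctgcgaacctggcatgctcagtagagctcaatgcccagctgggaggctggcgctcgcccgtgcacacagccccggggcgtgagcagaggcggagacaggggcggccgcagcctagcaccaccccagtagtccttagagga
Ripk1, downstream start, chr13:34002624-34002923, plus strand: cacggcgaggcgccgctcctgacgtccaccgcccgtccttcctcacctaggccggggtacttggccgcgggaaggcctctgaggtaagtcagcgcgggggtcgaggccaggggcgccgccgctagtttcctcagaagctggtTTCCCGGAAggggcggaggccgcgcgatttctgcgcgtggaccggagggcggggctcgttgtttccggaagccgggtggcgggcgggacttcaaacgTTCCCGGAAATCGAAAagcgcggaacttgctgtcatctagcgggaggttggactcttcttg
Short motifs were searched on both strands: GGGA and TTCC with any 2 bases between them for NF-κB, TTTC and TTTC with any 2 bases between for the interferon-stimulated response element, and TTC and GAA with any 3 bases between for the gamma-activated sequence. With the start base counted as 0, Cflar held TTTCGGTTTC from base 6 to base 15. The downstream window of Ripk1 held TTCCCGGAA from -108 to -100 and again from -11 to -3, and GAAATCGAAA, the interferon motif on the other strand, from -5 to 4. The last 2 of these overlap. The other 10 windows held none of these letters, and no match to this NF-κB pattern was found in any of the 12. Sites with other letters or outside the windows were not searched, so these promoters cannot be said to lack NF-κB sites. Over all 32851 windows of this length, 1.47% held the first motif, 3.44% the second and 8.3% the third.

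All 8 genes were expressed in all 12 libraries and passed the filter of a mean of at least 1 TPM, the abundance unit in which the authors deposited their kallisto estimates. TPM are scaled to transcript length and to the library's total, so levels can be compared between genes, here for their principal transcripts only. Principal transcripts held between 59.0% and 74.7% of a library's TPM, most in litter 5. The table holds 1 of 9 annotated transcripts of Ripk3, 2 of 13 of Cflar and 4 of 11 of Xiap. The means also include litter 5, where long transcripts such as those of Cflar and Xiap were lower. Averaged over the 12 libraries, the order was Cflar, Birc3, Mlkl, Casp8, Ripk1, Birc2, Ripk3 and Xiap, from 282 to 17.8 TPM. The level of Cflar was above that of 95.6% of the 8780 genes tested, and that of Xiap above 64.7%. By their principal transcripts, the survival genes Cflar and Birc3 thus stood above the caspase and kinase genes, and Birc2 and Xiap below most of them. Birc3 was above Mlkl in all 12 libraries, by a log2 difference of 1.34 ± 0.37 in ErbB4myeKO and 1.06 ± 0.49 in ErbB4FF (SD, n = 6 each). Cflar was above Birc3 in 5 of 6 libraries of each genotype, and fell just short of it in litter 5 of both. Casp8 was above Ripk1 by 0.56 ± 0.32 in ErbB4myeKO and 0.66 ± 0.49 in ErbB4FF (SD, n = 6 each), also more than the spread. Mlkl stood above Casp8 by 0.34 ± 0.32 and 0.39 ± 0.43, which exceeded the spread in ErbB4myeKO alone and narrowly. From Ripk1 downwards, no gene differed from the next in the order beyond the spread. The log2 difference between Ripk1 and Birc2 was 0.28 ± 0.44 in ErbB4myeKO and 0.25 ± 0.32 in ErbB4FF. That between Birc2 and Ripk3 was 0.61 ± 0.74 and 0.34 ± 0.43, and that between Ripk3 and Xiap was 0.51 ± 1.73 and 0.94 ± 1.49 (SD, n = 6 each).

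**Figure D1:**
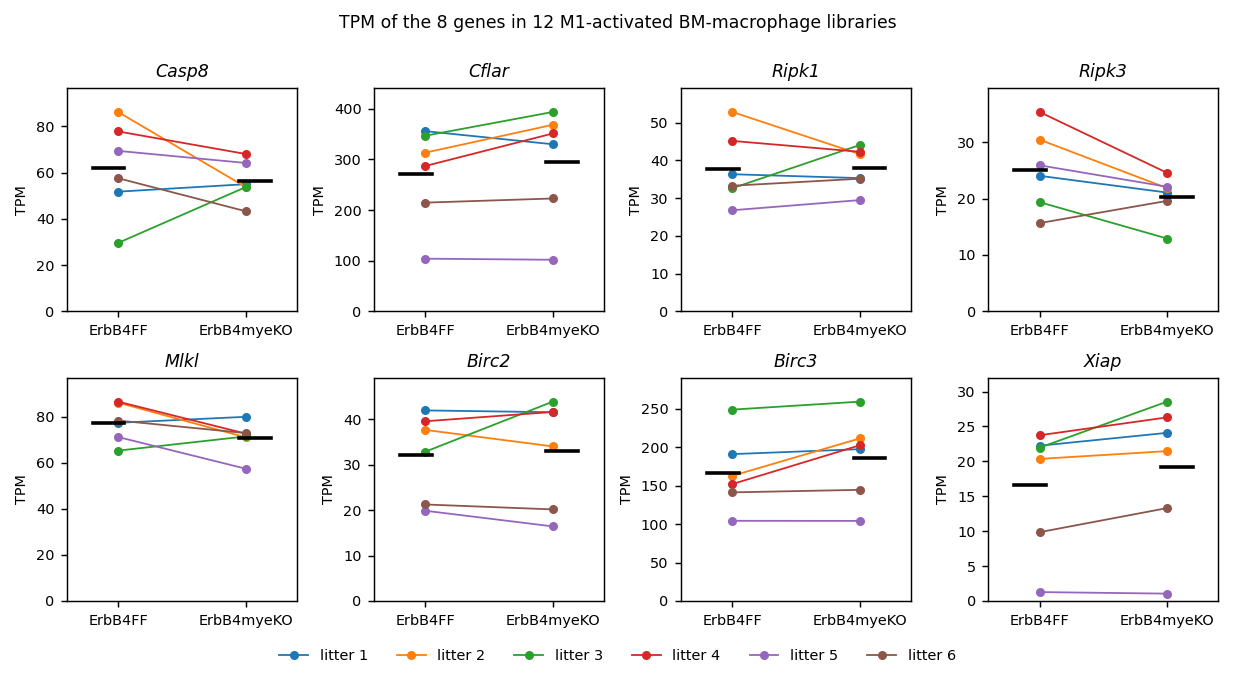
TPM of the 8 genes (y axis, linear from 0) in ErbB4FF and ErbB4myeKO BM-Mɸs, with 1 line per litter joining littermates and black bars at the group means (n = 6). The genotypes overlap for every gene, and litter 5 lies lowest in each genotype for Cflar, Ripk1, Birc2, Birc3 and Xiap.

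No member of the group differed between genotypes beyond the spread between litters. In limma, with litter as a block and adjustment over all 8780 genes, 0 of the 8 genes passed an adjusted p of 0.05 (lowest 0.603, for Ripk3), where 0% of all genes did. At an unadjusted p under 0.05 the count was also 0 of 8, where 8.21% of all genes were called (3.83% higher and 4.38% lower in ErbB4myeKO). None of the 8 moved in the same direction in all 6 litters, as 4.82% of all genes did. The median log2 ratio of the 8 genes was 0.01, beside -0.00068 over all genes tested, with 4 genes higher and 4 lower in ErbB4myeKO. The unadjusted 95% intervals of the fold change of the 8 genes ran from 0.676 (the lower end for Ripk3) to 1.31 (the upper end for Xiap). The receptor gene itself, Erbb4, was 0.583 ± 0.242 TPM in ErbB4myeKO and 0.450 ± 0.132 TPM in ErbB4FF (SD, n = 6 each), below the filter, so that transcript abundance did not separate the labelled genotypes (exact permutation p = 0.250). These are values of whole transcripts, which the loss of a floxed exon need not lower, so they do not check the labels. All ratios below are from ErbB4myeKO to ErbB4FF on the log2(TPM + 0.5) scale, within litters, and the two-sided exact permutation test exchanges genotypes within litters, which cannot give a p under 0.0312.

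**Figure D2:**
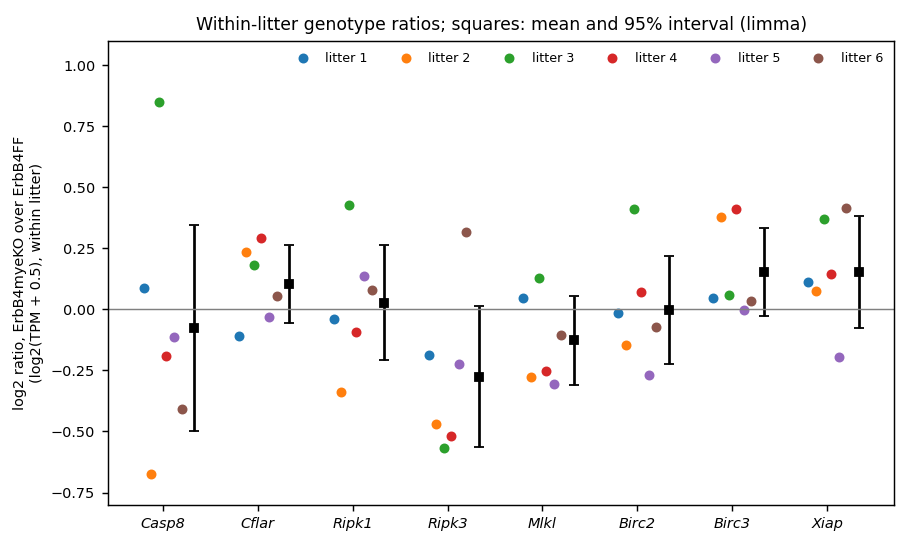
Within-litter log2 ratios of TPM from ErbB4myeKO to ErbB4FF (y axis) for the 8 genes (x axis), 1 colored point per litter. Black squares and bars are the limma mean and its unadjusted 95% interval, which includes 0 for all 8 genes.

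Casp8, the initiator caspase of the death receptor pathway, ranged from 43.3 to 68.1 TPM in ErbB4myeKO (median 54.4) and from 29.6 to 86.3 TPM in ErbB4FF (median 63.5). The ErbB4FF values enclosed all those of ErbB4myeKO. Litter ratios on the log2 scale averaged -0.08 ± 0.52 (SD, n = 6), the widest spread of the 8 genes. The lowest was -0.68 in litter 2 and the highest 0.85 in litter 3, and the mean did not differ from 0 (limma adjusted p = 0.905, exact permutation p = 0.719). The mean moved with single litters, to 0.04 without litter 2 and to -0.26 without litter 3, so its sign was not settled. Most of the signal came from ENSMUST00000165549 (1.92 kb), which held between 75.1% and 96.3% of the Casp8 TPM. The ErbB4FF library of litter 3 had the lowest level and the lowest share of that transcript, 22.2 TPM.

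Cflar encodes cFLIP, which pairs with caspase-8 and limits its activity. It ranged from 102 to 394 TPM in ErbB4myeKO (median 341) and from 104 to 356 TPM in ErbB4FF (median 300). The lowest value of each genotype was that of litter 5, followed by that of litter 6, and the groups overlapped almost completely. The ratio averaged 0.10 ± 0.16 on the log2 scale (SD, n = 6), with ErbB4myeKO the higher in 4 of 6 litters (exact permutation p = 0.188, limma adjusted p = 0.663), and 0.07 without litter 4. All of it came from 1 transcript of 6.57 kb, ENSMUST00000114313. The second deposited Cflar transcript, ENSMUST00000069333, was listed at 0 in all 12 libraries. It has the same coding length of 1443 bases, and 100% of its 31-mers also occur in other annotated transcripts. GENCODE M21 annotates 13 Cflar transcripts, and those not in the table were not analysed here. Set against Cflar within each library, Casp8 was lower by a log2 of -2.26 ± 0.81 in ErbB4myeKO and -2.08 ± 1.00 in ErbB4FF (SD, n = 6 each). Thus Cflar exceeded Casp8 in all 12 libraries, most narrowly in litter 5, where the smallest gap was -0.58.

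Ripk1, the kinase at which survival and death signals of the TNF receptor part, ranged from 29.5 to 44.1 TPM in ErbB4myeKO (median 38.5) and from 26.8 to 52.9 TPM in ErbB4FF (median 34.8). Values of the genotypes were interleaved. The ratio averaged 0.03 ± 0.26 on the log2 scale (SD, n = 6), and ErbB4myeKO was the higher in 3 of 6 litters (limma adjusted p = 0.941, exact permutation p = 0.75). The sign turned to -0.05 without litter 3.
The transcript from the upstream start, ENSMUST00000021844 (3.27 kb), carried between 76.8% and 90.5% of Ripk1 TPM. The transcript from the downstream start, ENSMUST00000167374 (6.47 kb), whose window holds the 3 motif matches shown above, stood between 3.44 and 5.81 TPM in ErbB4myeKO and between 4.43 and 6.21 TPM in ErbB4FF. It was lower in ErbB4myeKO in 6 of 6 litters, with litter ratios of -0.18 ± 0.15 on the log2 scale (mean and SD, n = 6, exact permutation p = 0.0312, the smallest the test can give). Among the 10085 transcripts tested with limma its adjusted p was 0.701 (standard error 0.11), so the difference did not pass the test. The library labelled ErbB4myeKO of litter 6 was lowest, and litter 5 was highest in each genotype.

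Ripk3, the kinase that commits a cell to necroptosis, had the largest mean difference of the group. It ranged from 12.9 to 24.6 TPM in ErbB4myeKO (median 21.5) and from 15.7 to 35.4 TPM in ErbB4FF (median 25.0). The ErbB4myeKO library was lower in litters 1 to 5, with log2 ratios of -0.19, -0.47, -0.57, -0.52 and -0.22, and higher in litter 6, at 0.32. These averaged -0.27 ± 0.33 (SD, n = 6, exact permutation p = 0.125), and its 95% interval in limma was -0.56 to 0.01 (unadjusted p = 0.0597, adjusted p = 0.603). By unadjusted p it ranked 863 among 8780 genes. Leaving out litters 5 and 6 together, a choice made after their values were seen, gave -0.44. The ratio of Ripk3 to Ripk1 within a library was -0.90 ± 0.44 in ErbB4myeKO and -0.60 ± 0.36 in ErbB4FF on the log2 scale (SD, n = 6 each), lower in ErbB4myeKO in 5 of 6 litters. This is a description of the same Ripk3 values and was not tested separately.

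Mlkl, the executioner of necroptosis and substrate of RIPK3, was the steadiest gene of the group across libraries. Its highest value was 1.51 times its lowest. It ranged from 57.5 to 80.1 TPM in ErbB4myeKO (median 72.1) and from 65.4 to 86.7 TPM in ErbB4FF (median 77.9). The ratio of -0.13 ± 0.18 on the log2 scale (SD, n = 6) was below 0 in 4 of 6 litters and smaller than its spread (exact permutation p = 0.188, limma adjusted p = 0.652). Mlkl exceeded Ripk3 in all 12 libraries, by a log2 of 1.80 ± 0.37 in ErbB4myeKO and 1.65 ± 0.35 in ErbB4FF (SD, n = 6 each).

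Birc2 and Birc3 encode cIAP1 and cIAP2, ubiquitin ligases that act on RIPK1. Birc2 ranged from 16.4 to 43.9 TPM in ErbB4myeKO (median 37.8) and from 19.9 to 42.0 TPM in ErbB4FF (median 35.3). Its log2 ratio of -0.0026 (standard error 0.10 in limma, 95% interval -0.23 to 0.22, adjusted p = 0.994) was the smallest of the 8 in size (exact permutation p = 0.938). Its transcripts differed in sign, with -0.14 ± 0.33 for ENSMUST00000074246, lower in ErbB4myeKO in 5 of 6 litters, and 0.20 ± 0.21 for ENSMUST00000190341, higher in 4 of 6 (SD, limma adjusted p = 0.784 and 0.685). Of the 31-mers of the latter 98.8% occur in other transcripts, so the division between them is uncertain. Birc3 ranged from 104 to 260 TPM in ErbB4myeKO (median 200.2) and from 104 to 249 TPM in ErbB4FF (median 158). Birc3 was higher in the ErbB4myeKO littermate in 5 of 6 litters, with log2 ratios of 0.38 and 0.41 in litters 2 and 4 and between -0.0017 and 0.06 in the other 4. The mean was 0.15 ± 0.19 (SD, n = 6, exact permutation p = 0.0625, limma adjusted p = 0.611), so that it did not exceed the spread between litters. Birc3 exceeded Birc2 in all 12 libraries, by a log2 of 2.52 ± 0.22 in ErbB4myeKO and 2.36 ± 0.37 in ErbB4FF (SD, n = 6 each). Of the 31-mers of the Birc3 transcript 16.6% occur in transcripts of other genes, and of those of the Birc2 transcripts 3.97% and 3.73%.

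Xiap, which binds and blocks caspases directly, showed the strongest variation, and it followed the litter and not the genotype. In litters 1 to 4 it lay between 20.3 and 28.6 TPM in all 8 libraries. In litter 6 it was 13.3 TPM in ErbB4myeKO and 9.85 TPM in ErbB4FF, and in litter 5 it was 1.05 and 1.27 TPM. The highest library was 27.2 times the lowest, whereas for the other 7 genes this ratio was between 1.51 and 3.87. Between genotypes the ratio averaged 0.15 ± 0.22 on the log2 scale (SD, n = 6), with ErbB4myeKO higher in 5 of 6 litters (exact permutation p = 0.188, limma adjusted p = 0.657). The mean was 0.10 without litter 6 and 0.22 without litter 5. Its 4 deposited transcripts are between 6.37 and 6.83 kb long, and between 90.6% and 99.6% of their 31-mers are shared with other transcripts, so the division among them is uncertain. ENSMUST00000055483 held the largest median share, 73.5%, but only 0.107 TPM in the ErbB4myeKO library of litter 5. With this transcript alone the log2 ratio was -0.0021.
ENSMUST00000115095, a minor form, was higher in ErbB4myeKO in 6 of 6 litters, with values from 0.342 to 1.5 TPM, against 0 to 1.00 TPM in ErbB4FF. On the log2 scale the ratio averaged 0.79 ± 0.61 (SD, n = 6, exact permutation p = 0.0312). It lay below the filter and was listed at 0 in the ErbB4FF libraries of litters 1 and 5, and the geometric mean of its normalized estimated counts, from the authors' column, was 16.9, beside 314 for ENSMUST00000055483.

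**Figure D3:**
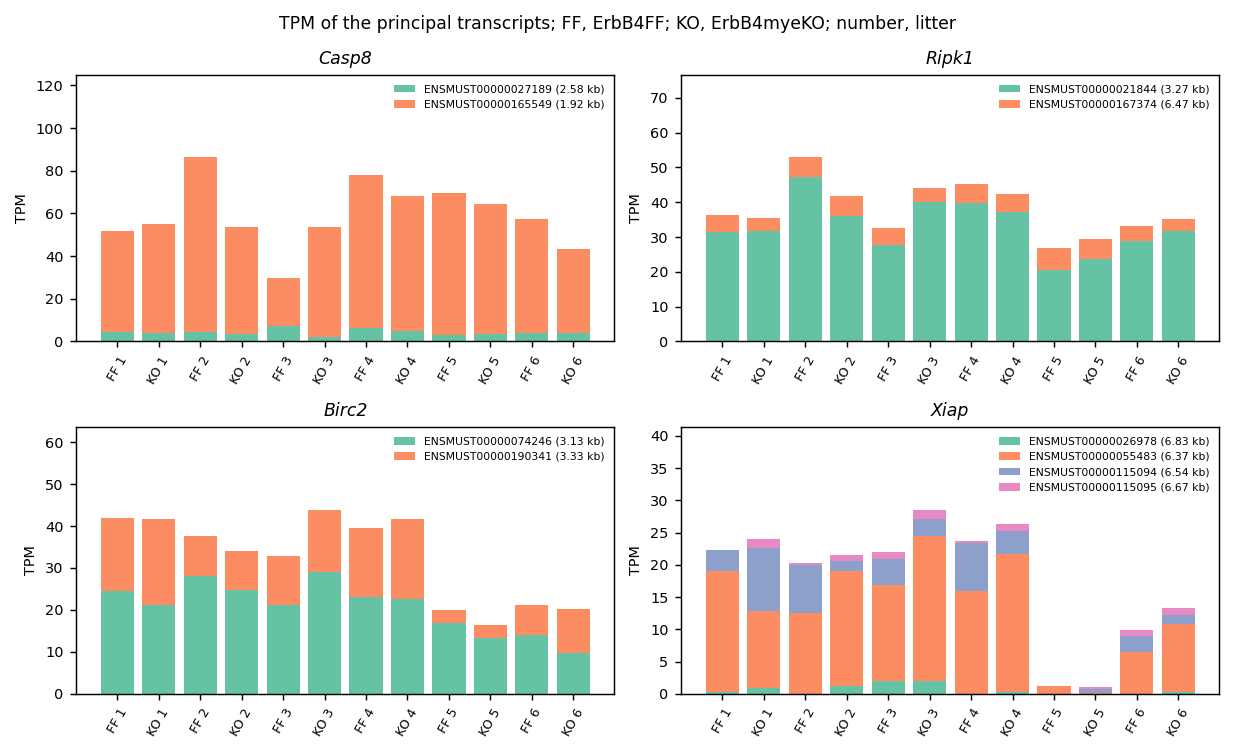
Stacked TPM (y axis, linear from 0) of the deposited principal transcripts of Casp8, Ripk1, Birc2 and Xiap in each library (x axis, ordered by litter, ErbB4FF before ErbB4myeKO). Xiap is nearly absent in both libraries of litter 5, and the 3.33 kb transcript of Birc2 is at 3.03 and 3.06 TPM there.

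Most of the variation in these genes lay between litters. Of the sum of squares of log2 values, differences between litters held 99.2% for Xiap, 98.1% for Cflar, 95.2% for Birc2, 92.2% for Birc3, 80.2% for Ripk1, 69.0% for Ripk3, 60.8% for Casp8 and 55.4% for Mlkl. The median was 86.2% for the 8 genes and 78.1% for all genes tested, and Ripk3, Casp8 and Mlkl lay below the latter. With only 2 libraries per litter, a good part of the sum of squares falls between litters even where litters do not differ. Genotype held at most 16.3%, for Mlkl, with a median of 0.795% for the 8 genes and 2.49% for all genes. Compared with the median of the other litters, the mean log2 level of litter 5 differed by -3.83 for Xiap, -1.72 for Cflar, -1.05 for Birc2 and -0.83 for Birc3. For Ripk1 and Mlkl the difference was -0.43 and -0.29, and for Ripk3 and Casp8 litter 5 was higher, by 0.09 and 0.32. Litter 5 was thus the lowest of each genotype for Cflar, Birc2, Birc3, Xiap and, by less, Ripk1, and it held the lowest ErbB4myeKO value of Mlkl.

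The libraries of litter 5 also differed from the rest by transcript length, over all genes. Among 914 transcripts over 6 kb, the median log2 deviation from each transcript's own median was -0.75 and -0.78 in the libraries of litter 5 and between 0.03 and 0.22 in those of litters 1 to 4. Among 1010 transcripts under 1 kb it was 0.69 and 0.73 in litter 5. Litter 6 was shifted the same way to a lesser degree, by -0.10 and -0.29 over 6 kb. Among the main transcripts of the 8 genes, those of Xiap and Cflar are over 6 kb and those of Ripk3, Casp8 and Mlkl under 2 kb. The minor Ripk1 transcript ENSMUST00000167374, at 6.47 kb, went against this pattern, since its values of 5.81 and 6.21 TPM in litter 5 were the highest of their genotypes. Within the class over 6 kb, 1.86% of transcripts were as low in litter 5 as Xiap ENSMUST00000055483 (-3.77) and 19.4% as low as the Cflar transcript (-1.64). Birc3, at 2.67 kb, lay at -0.76, where the median of the 3996 transcripts between 2 and 4 kb was -0.03 and 20.3% were as low. The part of transcript length in the litter differences of the 8 genes was not tested. In litters 5 and 6, the Y-linked genes Ddx3y and Eif2s3y were listed at 0 in all 4 libraries, whereas in litters 1 to 4 they were between 9.81 and 32.4 TPM in all 8. Kdm5d, also Y-linked, was not at 0 but between 0.202 and 0.406 TPM in litters 5 and 6, and between 1.27 and 2.37 TPM in litters 1 to 4. Uty, the last of the Y-linked list, was at 0 in 7 of the 12 libraries and reached at most 0.973 TPM. Between litters 1 to 4 and litters 5 and 6, litter, the sex that Y-linked genes stand for and the shift by length therefore cannot be told apart for Xiap, which is X-linked. Litters 5 and 6 did not differ in Ddx3y and Eif2s3y. Xiap stood at 1.05 and 1.27 TPM in litter 5 and at 13.3 and 9.85 TPM in litter 6. The part of sex in the Xiap values was not tested. As both mice of a litter were alike in the presence of Ddx3y and Eif2s3y, the comparison of genotypes within litters was balanced for it.

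**Figure D4:**
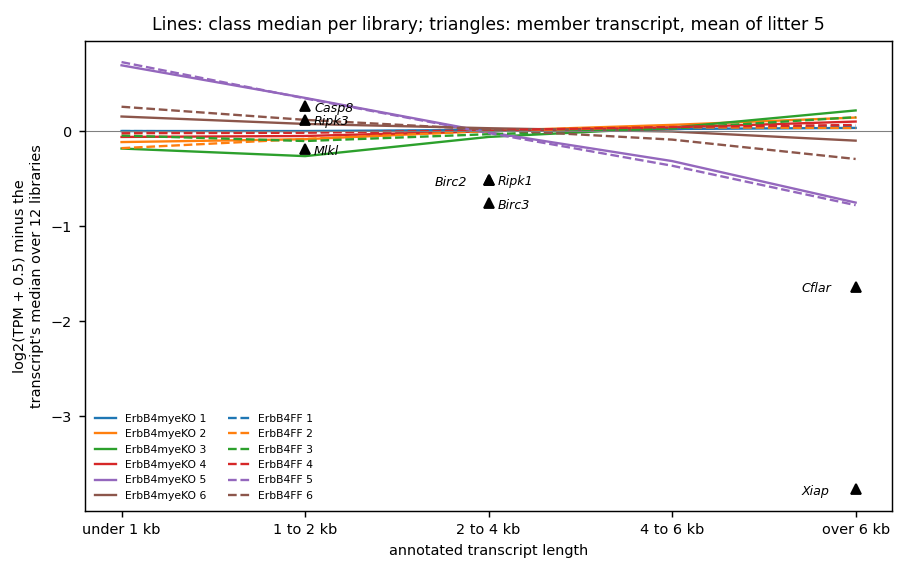
Median log2 deviation of transcripts from their own median over the 12 libraries (y axis) by annotated length class (x axis), 1 line per library, solid for ErbB4myeKO, dashed for ErbB4FF and colored by litter. Triangles show the main transcript of each of the 8 genes as the mean of the libraries of litter 5, with Xiap at -3.77 and Cflar at -1.64.

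Cflar, Birc2, Birc3 and Xiap varied together across the 12 libraries, with Pearson r of log2 values between 0.80 and 0.98 for the 6 pairs. These libraries share litters. Over the 6 within-litter ratios of ErbB4myeKO to ErbB4FF, from which litter is removed, r was 0.81 for Cflar and Birc3 and 0.68 for Birc2 and Xiap, but 0.38 for Cflar and Birc2, 0.27 for Cflar and Xiap, -0.07 for Birc3 and Xiap and 0 for Birc2 and Birc3. Without litter 5 the same pairs had r between 0.59 and 0.94 over 10 libraries. Casp8 had r of 0.56 with Ripk3 (0.55 without litter 5), 0.44 with Mlkl (0.83) and 0.37 with Ripk1 (0.78). With Birc3 it went the opposite way (-0.47 and -0.44). Over the 6 within-litter ratios Casp8 had -0.36 with Ripk3, the opposite sign, but 0.77 with Mlkl, 0.86 with Ripk1 and -0.45 with Birc3. Mlkl and Birc3 had r of 0.14 over all libraries and -0.66 without litter 5, so this relation depended on a single litter. These are descriptions over libraries of 6 litters, with no test.
Among the 8779 other genes tested, those whose levels followed a member most closely over the 12 libraries were Rap1gds1 and Fut8 for Cflar (r = 0.994 and 0.990), Tmem39a and Arrdc4 for Birc3 (0.984 and 0.982), Cep120 and Gpr141 for Birc2 (0.978 and 0.974) and Chd2 and Copb1 for Xiap (0.997 and 0.993). For the other members they were Vma21 and Pira2 for Casp8 (0.928 and 0.916), Baz1b and Ankrd12 for Ripk1 (0.941 and 0.940), Fcgr3 and Oaz2 for Ripk3 (0.919 and 0.917) and Ifi211 and Snw1 for Mlkl (0.870 and 0.860). Without litter 5 these values stayed between 0.722, for Snw1, and 0.981, for Rap1gds1.

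**Figure D5:**
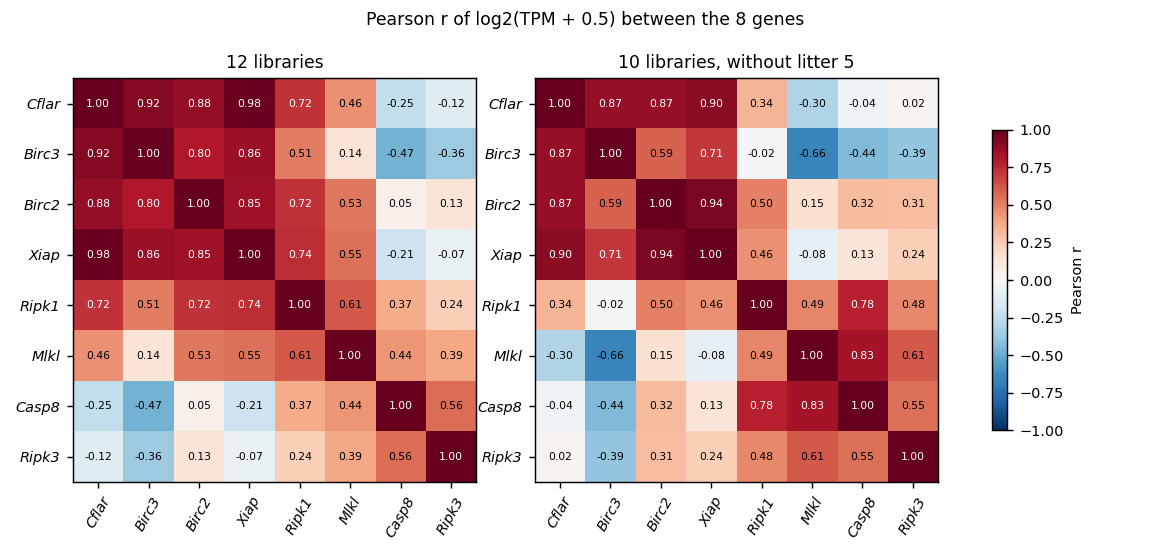
Pearson r of log2(TPM + 0.5) between the 8 genes over all 12 libraries (left) and over the 10 libraries without litter 5 (right), with the value printed in each cell (both axes, genes; color, r from -1 to 1). Cflar, Birc3, Birc2 and Xiap form a block of values from 0.80 to 0.98 on the left and from 0.59 to 0.94 on the right.

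Around these members, 73 further genes of the pathway were examined in 6 lists, and 67 of them passed the filter. None passed an adjusted p of 0.05. At an unadjusted p under 0.05, 0 were higher and 6 lower in ErbB4myeKO, 8.96% of those tested, where 4.38% of all genes were lower and 3.83% higher. The median log2 ratio was -0.07, and 40 of the 67 genes were lower on average. Among the receptors and ligands upstream, which are not all death receptors, 0 of 9 tested genes were higher and 1 lower at that threshold. For the adaptors and ubiquitin machinery these counts were 0 and 2 of 18, and for the kinases that act on RIPK1 0 and 0 of 9. They were 0 and 1 of 11 for the necroptosis sensors and regulators. Executioner caspases and the mitochondrial arm had 0 and 2 of 12, and relatives and antagonists of IAPs 0 and 0 of 8.

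Casp6 encodes a caspase that cleaves substrates of apoptosis once initiator caspases are active. It ranged from 1.69 to 10.3 TPM in ErbB4myeKO and from 5.61 to 14.2 TPM in ErbB4FF, so that the groups overlapped, and litter 3 was lowest in each. Its ratio of -0.49 ± 0.52 on the log2 scale was below 0 in 6 of 6 litters (SD, exact permutation p = 0.0312, limma unadjusted p = 0.0320 and adjusted p = 0.603). Litter 3 had -1.48, and without it the mean was -0.30. Bax and Bak1, which permeabilize mitochondria, had log2 ratios of 0.04 and 0.07 (-0.03 without litter 5 for Bax and 0.02 without litter 3 for Bak1) and were the most abundant genes of that list.
Upstream, Tnf, the ligand that starts the pathway, was at 2721 ± 1662 TPM in ErbB4myeKO and 2053 ± 1638 TPM in ErbB4FF (SD, n = 6 each), higher in ErbB4myeKO in 6 of 6 litters by 0.51 ± 0.68 on the log2 scale (exact permutation p = 0.0312, limma adjusted p = 0.603). The ratio was 1.76 in litter 2 and 0.84 in litter 4 but between 0.04 and 0.18 in the other 4, and without litter 2 the mean was 0.26. Tnfrsf1b, the more abundant of the TNF receptor genes, stood at 693 ± 158 TPM in ErbB4myeKO and 739 ± 212 TPM in ErbB4FF (SD, n = 6 each). The other TNF receptor gene, Tnfrsf1a, stood at 132 ± 23.4 and 147 ± 24.2 TPM. Its log2 ratio was -0.16 ± 0.19, lower in ErbB4myeKO in 5 of 6 litters (exact permutation p = 0.125, limma adjusted p = 0.603). Tnfsf10, the gene of TRAIL, had -0.33 ± 0.33, below 0 in 6 of 6 litters (SD, exact permutation p = 0.0312, limma adjusted p = 0.603). Otulin, which encodes a deubiquitinase of linear chains, and the adaptor Tax1bp1 had -0.29 and -0.28 (-0.18 without litter 2 for Tax1bp1), and were 2 of the 6 genes with an unadjusted p under 0.05. Traf1 and Tnfaip3, both NF-κB targets that act in the receptor complex, had -0.07 and 0.05 (-0.0089 without litter 6 and 0.02 without litter 4).
Zbp1, a nucleic acid sensor that activates RIPK3, was 155 ± 31 TPM in ErbB4myeKO and 177 ± 38.8 TPM in ErbB4FF (SD, n = 6 each), lower in ErbB4myeKO in 5 of 6 litters with a log2 ratio of -0.19 ± 0.31 (exact permutation p = 0.156, limma adjusted p = 0.644), and by -0.10 without litter 2. Chmp4b, a component of the ESCRT machinery that repairs membranes damaged by MLKL, had -0.16 ± 0.11 (SD, n = 6 litters) and was lower in 5 of 6 litters (exact permutation p = 0.0625, limma adjusted p = 0.603). Hsp90aa1, a chaperone of RIPK kinases, had 0.03, and -0.02 without litter 3. Mapkapk2 and Ikbke, kinases that phosphorylate RIPK1, had -0.10 and -0.06 (-0.06 without litter 3 and 0.03 without litter 2). Of the genes around the IAPs, Xaf1, an interferon-induced antagonist of XIAP, had -0.28 ± 0.32 (SD, n = 6 litters, limma adjusted p = 0.603, exact permutation p = 0.156), and Arel1 had 0.29 ± 0.93, which rests on a ratio of 2.18 in litter 5 and was -0.09 without it.

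All 8 macrophage markers were expressed in all 12 libraries, and 0 of them passed an adjusted p of 0.05 between genotypes, with 4 higher and 4 lower in ErbB4myeKO on average. Fcgr1, an Fc receptor gene, was 114 ± 68.1 TPM in ErbB4myeKO and 212 ± 120 TPM in ErbB4FF (SD, n = 6 each), lower in 6 of 6 litters (log2 ratio -0.86, limma unadjusted p = 0.00987 and adjusted p = 0.603). Lyz2, whose locus drives the Cre, was lower in 5 of 6 litters (-0.59 ± 1.00, limma adjusted p = 0.641), with 1.43 in litter 6 and a mean of -0.99 without it. Mertk was higher in 6 of 6 litters (0.14 ± 0.19, limma adjusted p = 0.641, and 0.07 without litter 6). The ratios of Adgre1, Cd14, Cd68, Csf1r and Itgam were 0.01, 0.16 (0.02 without litter 2), -0.12, 0.05 and -0.20. Of the 8 M1 markers 7 were expressed throughout, and 4 were higher and 4 lower in ErbB4myeKO on average. Il12b was higher in ErbB4myeKO in 6 of 6 litters (1.19 ± 1.39, or 0.75 without litter 2, limma unadjusted p = 0.0349 and adjusted p = 0.603) and Cxcl10 lower in 6 of 6 (-0.18 ± 0.12, limma unadjusted p = 0.0214 and adjusted p = 0.603). Nos2, a classical M1 gene, was listed at 0 in both libraries of litter 5 and in the ErbB4myeKO library of litter 3, and ranged up to 139 TPM elsewhere, with a ratio of -2.22 ± 4.16, lower in 4 litters and higher in 1 (SD, n = 6, limma adjusted p = 0.653). Cd86, Cd40, Irf1 and Cxcl9 had -0.12, 0.12, -0.05 and 0.21, also less than their SD between litters (0.21, 0.24, 0.13 and 0.28). Summed over their lists, lymphocyte, erythroid and mast cell markers reached at most 1.1, 0.981 and 0.492 TPM in a library. The 10 neutrophil markers summed to 39.7 to 371 TPM in ErbB4myeKO and 40.1 to 185 TPM in ErbB4FF, mostly from S100a8 and S100a9. Ngp and Camp reached 18.4 and 10.5 TPM, each highest in the ErbB4myeKO library of litter 5. All 4 of these genes were higher in every library of litters 5 and 6 than in any of litters 1 to 4. Retnlg was at 0 in all libraries, and Ly6g and Elane reached at most 0.448 and 0.377 TPM. The 6 fibroblast or stromal markers summed to 2.78 to 92.9 and 11.0 to 89.3 TPM, and the 7 dendritic cell markers to 9.49 to 35.9 and 4.52 to 27.7 TPM, with Siglech and Cd209a at 0. Xcr1, a dendritic cell marker, was higher in ErbB4myeKO in 5 of 6 litters and Camp, a neutrophil granule gene, in 6 of 6 (0.63 and 0.45 on the log2 scale, limma adjusted p = 0.603 for each). The other tested neutrophil markers S100a8, S100a9 and Ngp had 0.30, -0.24 and -0.36, and the other tested dendritic cell marker Clec9a had 0.10. Single litters weighed on these means, with 1.37 in litter 6 for S100a8, -2.59 and -2.49 in litter 3 for S100a9 and Ngp, and -3.14 in litter 2 for Clec9a. The part of activation state and of other cells in the values of the 8 genes was not tested, and in bulk RNA fewer expressing cells and less RNA per cell cannot be told apart.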

How the data were processed

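Single-end reads of 75 bp were pseudoaligned by the authors with kallisto to the mouse transcriptome (mm10 per the labels), and the deposited values are TPM of APPRIS principal isoforms. Versions of kallisto and of the transcriptome are not given in the sources used here. The table also holds the authors' sleuth test (p, q, fold), which was not used, and, as deposited, a natural log column averaging sleuth's estimated counts, used here only after exponentiation, as a geometric mean per transcript. It has 29213 rows, of which 405 repeat a transcript and were counted once. TPM carry no depth, so precision rests on the spread between litters. Libraries held between 10214 and 12985 genes above 0.

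Transcripts of a gene were added up, and log2(TPM + 0.5) of genes averaging 1 TPM or more was fitted with limma 3.58.1 in R 4.3.3 (eBayes with trend, litter as a block, Benjamini-Hochberg adjustment). Sex, a covariate of the authors, is not on the labels. Python 3.11.15 with scipy 1.17.1 was used for exact permutation tests. The cultures came from separate mice, paired by litter number, and the correlation of littermates' log2 values after centring was 0.096 to 0.762. Tested on simulated data of 8780 genes with independent noise, the model recovered 66% of changes by a log2 of 1 and 89% of those by a log2 of 2. Of its 167 calls, 12 were false. Smaller changes were not simulated, so this does not bear on ratios of the size seen in the 8 members (largest -0.27, for Ripk3). The members, the lists and the tests were chosen with earlier results of these data known. Genes named are the 8 members, the 2 most abundant of each pathway list, those with an unadjusted p under 0.05 and 1 sign in 6 litters, Tnf, Tnfsf10, Zbp1, Erbb4, and the 2 nearest genes per member. A gene that this rule names is not reported here. Otulin, Tax1bp1 and Tnfrsf1a were named after their values were seen, and cell markers and Y-linked genes are from fixed lists. Promoter sequences are from RefSeq (GRCm38.p6). Shared 31-mers were counted in GENCODE M21.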

Additional observations from a re-analysis of the deposited data

Results flagged for a closer look

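Groups of 6 values were compared with Dixon's critical value at the 95% level in 69 groups. These were the TPM of each genotype and the litter ratios of the members and the pathway genes named by rule. Otulin, Tax1bp1 and Tnfrsf1a were not among them, and 3 groups held a value farther from the rest. Chance alone flags about 1 in 20 such groups. None of the 3 concerned the 8 members. The ErbB4myeKO library of litter 3 had Casp6 at 1.69 TPM, where the other 5 ErbB4myeKO libraries lay between 8.35 and 10.3 TPM. The ErbB4myeKO library of litter 5 had Bax at 262 TPM. For Arel1, the log2 ratio of litter 5 was 2.18.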

How the results depend on the processing

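The count of genes at an adjusted p under 0.05 was 0 in every alternative but 1. Without litter 3 it was 1 (range 0 to 1 with a litter left out), the immunoglobulin gene Igkv1-88, named after its value was seen. An unadjusted p under 0.05 was reached by 721 genes, and by 75 with no replicate block. Leaving out a litter gave between 413 (without litter 2) and 864, with 458 without litter 4. Of the pathway genes 6 were at an unadjusted p under 0.05, 0 with no replicate block, 3 in limma without trend, and between 2 (without litter 2) and 8 with a litter left out. The 8 members were refitted under 16 alternatives each, 128 values in all, of which 118 kept their direction, and the smallest adjusted p among them was 0.5005. The 10 reversals were in Birc2 (5), Casp8 (2), Ripk1 (2) and Xiap (1). For Birc2 the log2 ratio was 0.0190 with the Y-linked covariate, 0.0815 in litters 1 to 4 alone and -0.0856 to 0.0504 with a litter left out. For Casp8 it was 0.0171 in litters 1 to 4 alone and -0.26 (without litter 3) to 0.0449 (without litter 2) with a litter left out. For Ripk1 it was -0.0116 in litters 1 to 4 alone and -0.0524 (without litter 3) to 0.10 with a litter left out. With the most abundant transcript alone it was -0.0021 for Xiap, against 0.15 with all transcripts, and -0.14 for Birc2, the farthest of its alternatives. The restriction to litters 1 to 4 was chosen after seeing the data. The replicate block changed no call of a member. The causes were not tested.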
